A study of Mus musculus with 30 samples.

Results

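The ribosome is built from a large and a small subunit, each made of ribosomal RNA and a set of ribosomal proteins that are needed in equal numbers. Most messages of these proteins belong to the terminal oligopyrimidine class: they begin with a C followed by a run of pyrimidines, and their translation is controlled as a group through the mTORC1 pathway. In the brain, as in other tissues, they are among the abundant messages of every cell type, so their levels are often read as a gauge of protein synthesis capacity and of RNA input. A few members have paralogs with tissue-restricted expression.

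The members were all non-control probes of the Agilent mouse array whose gene name is Rpl or Rps followed by a digit, or Rpsa, Rplp0, Rplp1 or Rplp2, leaving out the S6 kinases and names marked as pseudogenes. The rule used no measured value. It found 140 probes of 85 genes among 41174 probes of 28146 gene names, on 158 of the 43379 spots. Of these, 83 probes of 51 genes carry large subunit names and 57 probes of 34 genes carry small subunit names. It also took in 2 probes of Rps19bp1, which encodes a binding partner of Rps19 and not a ribosomal protein. There were 43 genes with 1 probe and 42 with several, up to 4.

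RNA of a dissected hypothalamus block from male C57BL/6 mice was measured with 1 one-colour array per mouse, to ask how alleles of the human PER3 repeat polymorphism alter expression. In the Boxhill group (7 arrays), mouse Per3 exon 18 was replaced by the human exon with the 5-repeat allele, homozygous (Per3 5/5). In the Coach group (8 arrays) the homozygous human exon had the 4-repeat allele (Per3 4/4). The wild-type mice (Wildtype R1 to R7 for Boxhill, 7 arrays, and R8 to R15 for Coach, 8 arrays) were derived from the same conditional targeting lines. Both knock-ins were made by a ubiquitous Cre that was later bred out, so that the change is present in every cell and not in the hypothalamus alone. All mice, controls included, were kept in 3.5 h of light and 3.5 h of darkness by turns and were killed in the 17th light period, so no group without this schedule enters a comparison. The 2 sets of arrays were run separately and each knock-in was compared only with the wild types of its own run.

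Levels are log2 intensities after each array's 75th percentile was set to 0. The percentile lay between 752 and 1546 in run 1 and between 347 and 1370 in run 2, and 58.6% to 74.6% of the spots of an array were well above background. All 15 hypothalamic neuron genes that could be tested were above background on at least 50% of the arrays of Boxhill and of its wild types, and 14 in each group of run 2. The summed signal of pituitary genes ranged over wild types of run 2 from -1.37 to 9.94 on the log2 scale, and that of choroid plexus genes from 3.27 to 5.92. In a bulk block, fewer cells of a type and less RNA per cell cannot be told apart.

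Of the 140 member probes, 134 from all 85 genes passed the filter on dim probes, which asks for a signal well above background on at least 50% of the arrays of 1 or more genotypes, and 124 were well above background on all 30 arrays, against 54.4% of all probes on the array. The 6 that did not pass were probes of Rpl35a, Rpl39l, Rps2, Rps12, Rps18 and Rps19. Of the 140 targets, 121 were RefSeq transcripts and 19 were other cDNAs, and the former all matched the RefSeq table (GRCm38.p6). There, 3 had another symbol, among them Rps3a, now Rps3a1, and Rps4y2, now Rps4l. The array's own positions put the probes of Rps27 and Rps29 on chromosomes 9 and 2, another chromosome than that of the RefSeq gene, so they may read a near-identical copy. Pairs of probes of Rpl36a, Rpl36, Rpl29 and Rps21 shared 20 to 42 bases, so their values are not independent.

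The probes of 3 genes are shown because the 3 smallest unadjusted p of limma in the Boxhill comparison came from 1 probe of each. Other probes of the same gene read another stretch of the message. Rps6, a small subunit protein and the substrate of the S6 kinases, has a probe to its RefSeq message at chr4:86501886-86502077 (mm9, minus strand), shown here, and a probe to a separate cDNA. Rpl7, a large subunit protein, has 3 probes in its coding sequence. Rpl7l1 is a paralog of Rpl7. Sequences are written 5′ to 3′ without capitals, whole for the coding probes and as the first 30 of 60 bases for the others.
Rps6 A_51_P344734: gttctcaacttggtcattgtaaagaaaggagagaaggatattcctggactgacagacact
Rpl7 A_51_P496480: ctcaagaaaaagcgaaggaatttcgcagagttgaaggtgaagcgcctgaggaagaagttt
Rpl7 A_52_P346326: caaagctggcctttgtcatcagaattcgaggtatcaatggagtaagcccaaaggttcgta
Rpl7 A_52_P455580: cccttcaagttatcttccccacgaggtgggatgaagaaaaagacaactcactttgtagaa
Rpl7l1 A_52_P343343: aattatcaagtatcttcagagaagattatt
Rpl7l1 A_51_P110147: agattgttgtttcctaaaccacatgtaccc

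The members share a feature that the rule did not use. RefSeq promoters of 63 member genes were searched on the strand of the gene, from 50 bases before to 50 bases after the start, for a C followed by at least 6 further pyrimidines. Such a tract was found in 55 of 63 (87.3%), against 44.5% of all 27025 genes with a promoter, 43.3% of 67 mitochondrial ribosomal protein genes and 10 of 14 other genes with terminal oligopyrimidine messages. The match is a description of these letters and not a mapped start. Examples with a tract that begins within 5 bases of the start are printed for Rps6 and for 3 members that followed the other members closely across arrays, with the tract in capitals. They lie at chr4:86857351-86857380 (Rps6, minus strand), chr7:141447635-141447663 (Rplp2, a stalk protein), chr17:27635227-27635259 (Rps10, minus strand) and chr3:90213634-90213662 (Rps27, minus strand), all in GRCm38.p6.
Rps6: gcggaagtcgggCCTCTTTTTCgtgacgcc
Rplp2: ctgcgtcagcgtCTTCCTTTCgccgccgg
Rps10: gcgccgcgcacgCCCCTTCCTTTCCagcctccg
Rps27: tttccgctttcgCTCCTTTCCggcggtga

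In Per3 5/5 hypothalamus, no ribosomal protein gene differed from wild type past the threshold. limma called 0 of 134 member probes at an adjusted p under 0.05, where it called 0% of all 29947 probes tested. The methods' t-test called 0 members as well, and 0 of all probes. At an unadjusted p under 0.05, 2 members were higher (3.43% of all probes were) and 0 were lower (2.74% of all probes were). These shares of all probes rested on single arrays: without Boxhill R3 they fell to 355 probes higher (1.19%) and 449 lower, and they were 1.61% and 1.27% without R5, 1.59% and 1.58% without R6, and 4.80% and 4.92% without R1. With any 1 array of the run left out, 2 or 3 members were higher and 0 to 2 lower. The smallest adjusted p of a member was 0.796. The median log2 change of the members was -0.05, against -0.02 over all probes, with 91 of 134 under 0 where 54.5% of all probes were. Changes ranged from -0.51 to 0.51 and 90.3% of members lay within 0.2 of 0, against 69.6% of all probes, of which a larger share is dim. Large subunit members had a median of -0.05 and small subunit members of -0.05.

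In Per3 4/4 hypothalamus no member passed the threshold either. limma called 0 of 134 members at an adjusted p under 0.05 (0.0134% of all probes were called). The methods' t-test called 0 members and 0 of all probes. At an unadjusted p under 0.05, 0 members were higher and 0 lower, where 0.988% and 0.748% of all probes were. Without Coach R7 these shares were 2.51% and 1.90%, with 0 and 1 members, and without Wildtype R13 they were 3.12% and 2.08%, with 0 and 2 members. Without Coach R5 they were 0.855% and 0.571%, with 0 and 2 members (1.49%). Without Wildtype R15 they were 0.882% and 1.26%, with 0 and 2 members (1.49%). With any 1 array of the run left out, 0 members were higher and 0 to 2 lower. The members' median log2 change was -0.03, against 0.01 over all probes. Within 0.2 of 0 lay 97.0% of members, against 80.3% of all probes, of which a larger share is dim. The median was -0.04 for large subunit and -0.01 for small subunit members.

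The precision allows a bound. The 95% interval of the log2 change was taken for the 124 members well above background on every array. The lowest bound of any member was -0.58 and the highest bound of any member 0.64 in Per3 5/5. In Per3 4/4 they were -0.62 and 0.59, so a 2-fold change lay outside all 124 intervals in both. In 119 and 122 of them the interval lay within 0.5 of 0. No group of arrays separated: the groups did not overlap for 0 members in either direction, where 0.0768% of all probes were wholly higher and 0.0968% wholly lower in Per3 5/5, and 0.00668% wholly higher and 0.00668% wholly lower in Per3 4/4. The effect of Per3 5/5 minus that of Per3 4/4 was called for 0 of 134 members (0% of all probes), with 2 higher (1.33% of all) and 0 lower (1.65% of all) at an unadjusted p under 0.05.

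**Figure D1:**
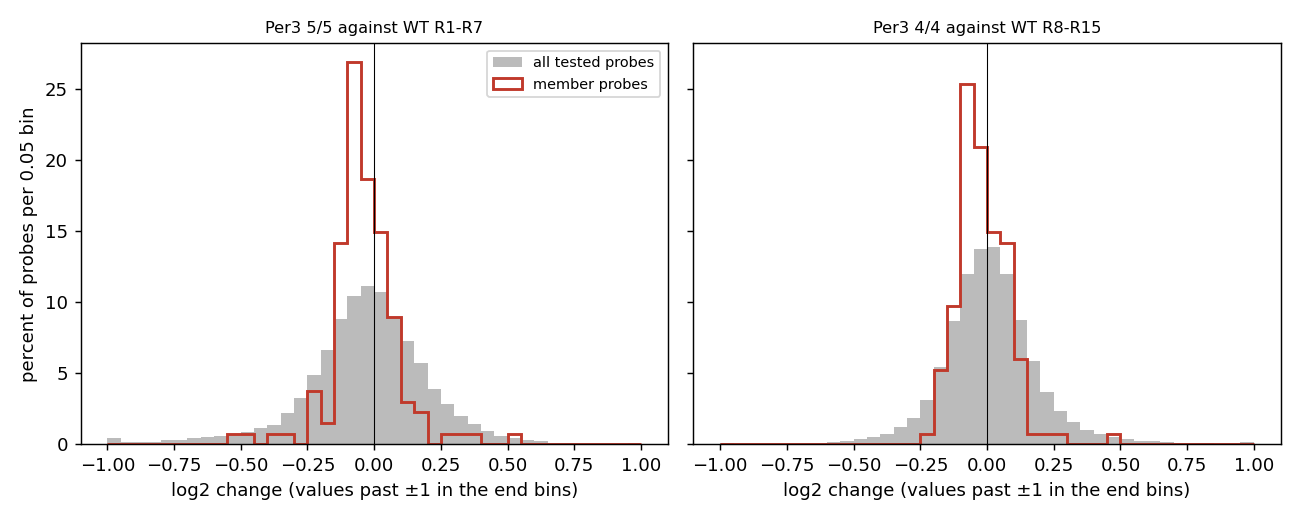
Log2 changes of the 134 tested member probes (red outline) and of all 29947 tested probes (grey), as a percent of probes per bin of 0.05, for Per3 5/5 (left) and Per3 4/4 (right) against the wild types of the same run. The members form a narrower distribution than all probes, with medians of -0.05 and -0.03. A larger share of all probes is dim: 22391 of 29947 were well above background on every array, against 124 of 134 members.

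The per-array median of the members overlapped between genotypes. It ran from 5.40 through a median of 5.59 to 5.70 in Per3 5/5 and from 5.48 through 5.60 to 6.05 in their wild types. In run 2 it ran from 5.12 through 5.24 to 5.59 in Per3 4/4 and from 5.27 through 5.39 to 5.51 in wild type. The highest wild type of run 1 (R1) and the highest Per3 4/4 mouse (R5) each stood above the rest of their group. Without Wildtype R1 the members' median change in Per3 5/5 was 0.01, and without Coach R5 that in Per3 4/4 was -0.08. Every slide held both genotypes. The within-slide member medians were 0.07, -0.11, -0.05 and -0.13 in run 1 and -0.05, -0.19, 0.07 and 0.05 in run 2. Neither comparison kept 1 sign over its slides. In the same order, the medians of all tested probes were 0.01, -0.10, -0.01 and -0.00 in run 1 and -0.01, -0.02, -0.01 and 0.07 in run 2.

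**Figure D2:**
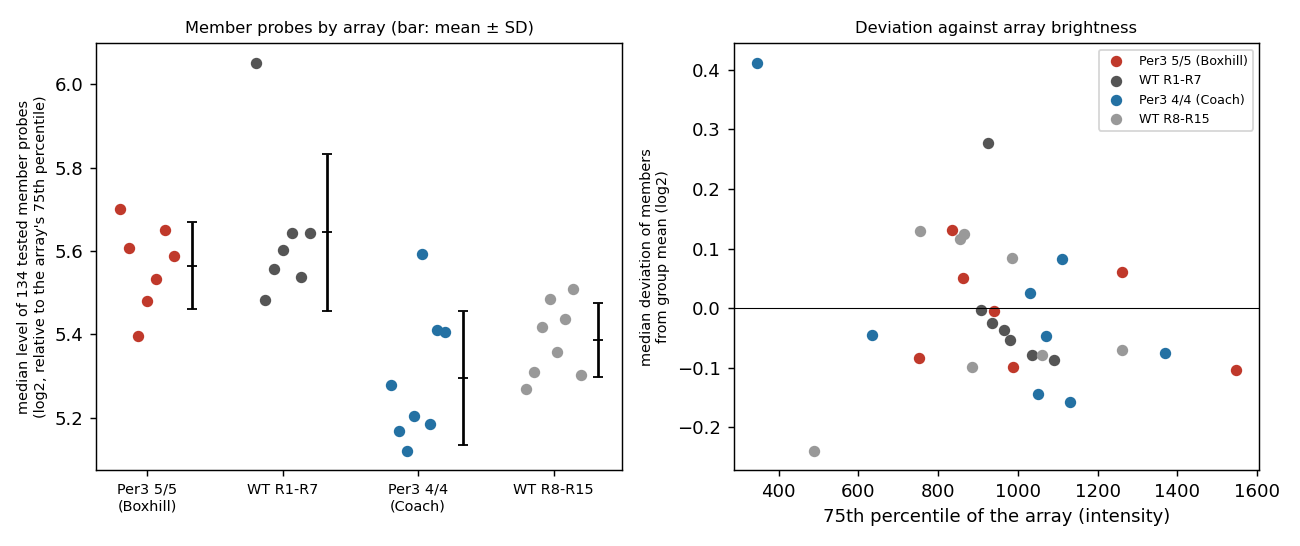
Left, the median log2 level of the 134 tested members on each array, by group, with the mean ± SD beside the points. Right, the median deviation of the members from their group mean against the array's 75th percentile intensity: Coach R5 (0.41, the dimmest array at 347), Wildtype R1 (0.28) and Wildtype R15 (-0.24, at 490) lie farthest from 0.

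Among small subunit genes the probe with the smallest p in Per3 5/5 was the cDNA probe of Rps6. Its level ran from -4.00 through -3.68 to -3.53 in Per3 5/5 and from -5.48 through -4.18 to -3.65 in wild type. The groups overlapped and the wild types reached lower. The log2 change was 0.51 (SE 0.18, 1.43-fold, limma adjusted p = 0.796), and without Wildtype R7, the lowest array, it was 0.31. In Per3 4/4 it was -0.09 (SE 0.17, limma adjusted p = 1.00). The probe was well above background on 29 of 30 arrays. The probe to the Rps6 message itself differed by 0.03 (SE 0.12) in Per3 5/5 and by -0.00 (SE 0.11) in Per3 4/4, with levels from 4.70 through 4.84 to 5.08 against 4.69 through 4.80 to 5.31 in run 1.

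Rpl7l1 gave the other unadjusted call. Probe A_52_P343343 ran from -2.50 through -2.32 to -1.59 in Per3 5/5 and from -2.55 through -2.52 to -2.33 in wild type. In 3 of 7 Per3 5/5 arrays (R3, R5 and R6) it read -1.59, -1.72 and -1.73, well above every wild type of the run. The 4 others lay between -2.50 and -2.32, and the highest of them (R7, -2.317) was also just above the highest wild type (R3, -2.326). The log2 change was 0.36 (SE 0.13, 1.29-fold, limma adjusted p = 0.796). The other Rpl7l1 probe differed by 0.03 (SE 0.10), and the same 3 arrays were its highest in that group, at 0.23, 0.16 and 0.06. In Per3 4/4 the changes of the probes were -0.08 (SE 0.12) and -0.05 (SE 0.09).

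Rpl7 had the next smallest p. Its probe A_51_P496480 ran from 3.16 through 3.37 to 3.90 in Per3 5/5 and from 2.11 through 3.27 to 3.42 in wild type, a log2 change of 0.32 (SE 0.16, limma adjusted p = 0.796). A single wild type (R4) lay far below the others, and without it the change was 0.15. The other coding probes of Rpl7 differed by 0.10 (SE 0.11) and 0.02 (SE 0.12).

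**Figure D3:**
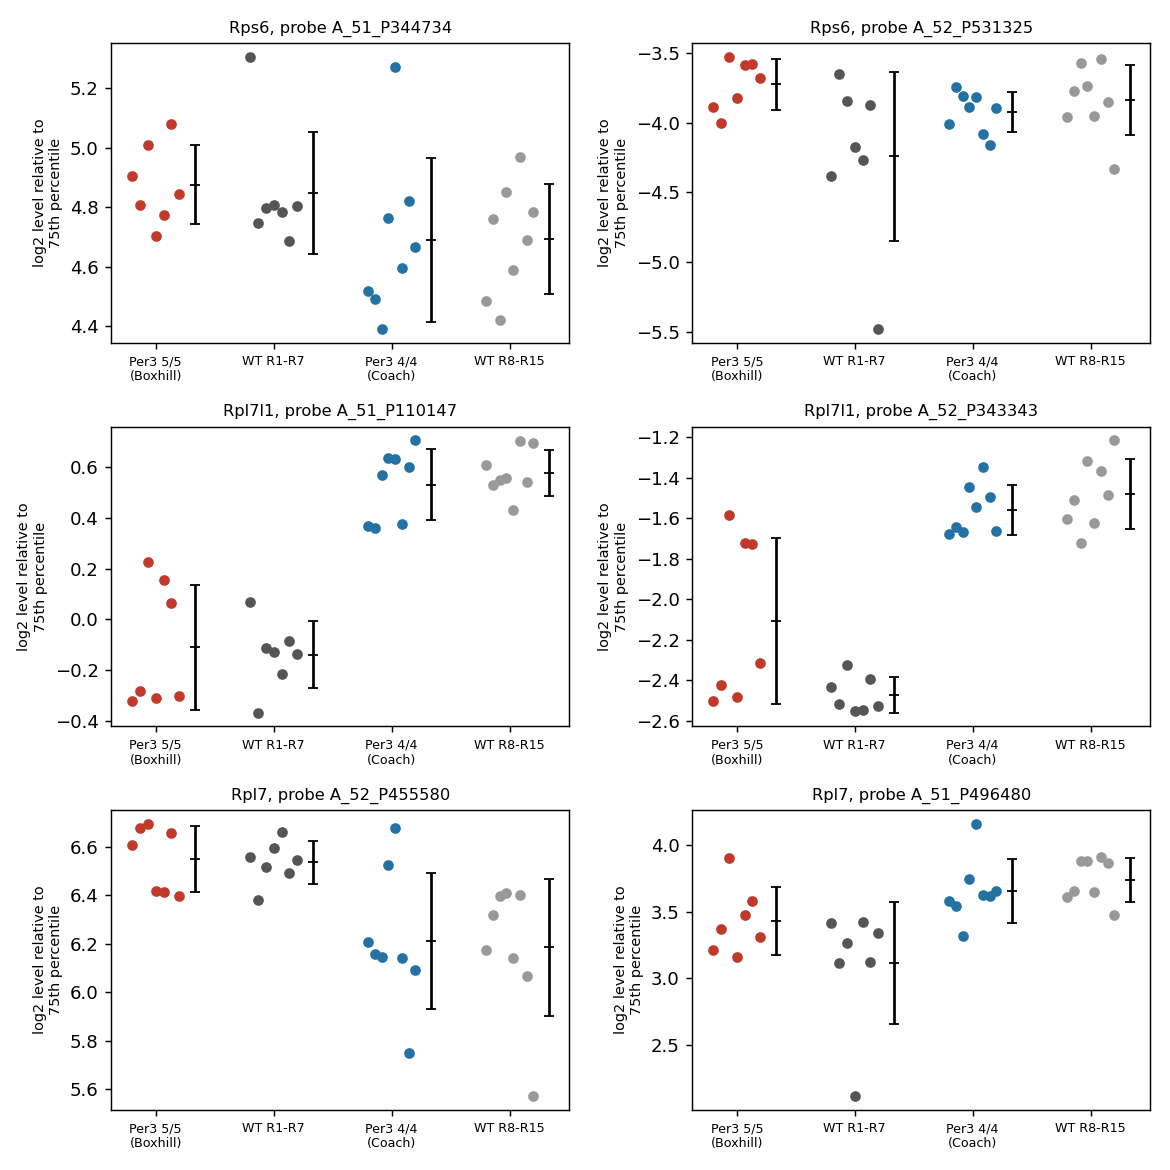
Log2 level of each array for 2 probes each of Rps6, Rpl7l1 and Rpl7 in the 4 groups, with the mean ± SD beside the points. In each row the right-hand probe gave one of the 3 smallest p in Per3 5/5, and the left-hand probe of the same gene differed by 0.03 or less. The remaining Rpl7 probe is not shown, and its change lay between those of the 2 shown.

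The largest negative changes in Per3 5/5 came from dim probes to other cDNAs or to a paralog. Rpl11, a large subunit protein that binds the p53 regulator Mdm2, had a change of -0.51 (SE 0.30) at a cDNA probe and of -0.08 (SE 0.14) at its RefSeq probe. Rps13, of the small subunit, had -0.46 (SE 0.31) at a cDNA probe and 0.00 (SE 0.12) at its RefSeq probe. Rps28 had -0.31 (SE 0.31) at a cDNA probe. In Per3 4/4 the cDNA probes of Rpl11, Rps13 and Rps28 changed by 0.12, 0.28 and -0.07. With 1 array left out the values ran there from -0.06 to 0.33, from 0.12 to 0.48 and from -0.27 to 0.11. These 3 probes were well above background on 28 or 29 of 30 arrays. All 7 members with a pooled within-group SD over 0.5 were below that level on at least 1 array, and 6 of them read other cDNAs. The 4 most variable included probes of Rpl39l, Rpl13, Rps24 and Rps4x, with SDs of 0.87, 0.82, 0.73 and 0.68. Members well above background on every array had a median SD of 0.21, against 0.29 for the 22391 probes of the array that met that condition.

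The paralogs and their partners are given side by side, and the difference between them was not tested. Rpl39l, a paralog of Rpl39 known from testis, was well above background on 16 of 30 arrays, with changes of -0.40 (SE 0.44) in Per3 5/5 and 0.47 (SE 0.41) in Per3 4/4, against -0.02 (SE 0.13) and -0.06 (SE 0.12) for Rpl39. With 1 array left out the Rpl39l value ran from -0.61 (without Boxhill R6) to -0.19 (without Wildtype R7) in Per3 5/5, with -0.20 without Boxhill R4 and -0.21 without Boxhill R7, and from 0.30 (without Coach R3) and 0.31 (without Wildtype R14) to 0.71 (without Coach R8) in Per3 4/4. Rpl3l, a paralog of Rpl3 known from striated muscle, was well above background on 23 arrays and differed by 0.28 (SE 0.23) and -0.10 (SE 0.21), with 0.15 (SE 0.11) and 0.01 (SE 0.10) for Rpl3. Rpl22l1 differed by 0.15 (SE 0.14) and 0.21 (SE 0.13) at A_51_P218814 and by 0.14 (SE 0.19) and -0.07 (SE 0.18) at A_52_P65897. Rpl22 differed by -0.15 (SE 0.11) and -0.08 (SE 0.11) at A_51_P387878 and by 0.02 (SE 0.10) and -0.17 (SE 0.10) at A_52_P391718, so in each gene the probes had opposite signs in 1 of the comparisons. Without Coach R5 the change at A_51_P218814 in Per3 4/4 was 0.10, and without Wildtype R15 it was 0.13. Rps27l differed by 0.01 (SE 0.13) in Per3 5/5 and 0.08 (SE 0.12) in Per3 4/4, against -0.11 (SE 0.12) and -0.02 (SE 0.12) for Rps27. Rpl36al differed by 0.05 (SE 0.09) and -0.02 (SE 0.09). The 3 probes of its partner Rpl36a gave -0.06 (SE 0.14), -0.07 (SE 0.13) and -0.04 (SE 0.10) in Per3 5/5 and 0.06 (SE 0.13), 0.08 (SE 0.12) and 0.01 (SE 0.09) in Per3 4/4.

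The stalk proteins, which recruit the translation factors, gave the smallest p of the Per3 4/4 comparison but one. Rplp0 probe A_51_P344103, printed on 10 spots per array, ran from 2.27 through 2.50 to 2.78 in Per3 4/4 and from 2.13 through 2.71 to 3.11 in wild type, a change of -0.22 (SE 0.13, limma adjusted p = 1.00). A second Rplp0 probe differed by -0.19 (SE 0.14) and the third by 0.10 (SE 0.11), so the probes of this gene did not share a sign. Rplp1 and Rplp2 differed by 0.05 (SE 0.16) and 0.05 (SE 0.12) there and by -0.07 (SE 0.18) and -0.10 (SE 0.13) in Per3 5/5. The smallest p of that comparison, 0.084 unadjusted, belonged to Rpl22 probe A_52_P391718, with a change of -0.17 (SE 0.10, limma adjusted p = 1.00), and -0.11 without Wildtype R10. Rps10 differed by -0.18 (SE 0.11) at its 1 probe, and Rpl36 by -0.14 (SE 0.09) and -0.09 (SE 0.10) at its 2 probes. The probes of Rpl21 gave -0.18 (SE 0.21) and 0.08 (SE 0.10), and those of Rps15a 0.16 (SE 0.12) and -0.07 (SE 0.14), so in neither gene did they share a sign. With 1 array left out, the former value of Rpl21 ran from -0.33 (without Wildtype R13) to -0.10 (without Wildtype R12), and that of Rps15a from 0.08 (without Wildtype R10) to 0.20 (without Wildtype R15). Rps27a, made as a fusion with ubiquitin, differed by -0.03 (SE 0.15) in Per3 5/5 and by 0.08 (SE 0.14) in Per3 4/4, and Rpsa, also known as the laminin receptor, by -0.05 (SE 0.11) and -0.12 (SE 0.10) at 1 probe and by -0.03 (SE 0.14) and 0.01 (SE 0.13) at the other.

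The members moved together from mouse to mouse within groups. After the 4 group means were removed, Pearson's r of a member with the median of the members of other genes over 30 arrays had a median of 0.67, and 101 of 134 (75.4%) were above 0.5, against 6.79% of the other tested probes. These arrays share the scaling and the RNA input, and r is given as a description. It had a median of 0.66 over the 14 arrays of run 1, where 69.4% of members and 11.9% of the other probes were above 0.5, and of 0.71 over the 16 of run 2, where 75.4% and 14.9% were. With each array centred on its median the shares were 79.9% and 14.3%. Without the 3 arrays farthest from their group (Coach R5, Wildtype R1 and Wildtype R15), 57.5% of members were above 0.5, against 1.20% of the other probes. With quantile normalization 43.3% were, against 5.19%.

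The probes closest to the other members were those of Rpl32 (r 0.93), Rps21 (0.92) and Rps16 (0.90). The 10 tested members that were not above background on every array had r between -0.54 and 0.06, among them the cDNA probes of Rps6 (0.06), Rpl11 (-0.11) and Rps13 (0.05), while the 124 others had a median of 0.68. The probe to the Rps6 message had r of 0.67. Rpl7l1 probe A_52_P343343 had -0.16 and Rpl7 probe A_51_P496480 had 0.45.

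**Figure D4:**
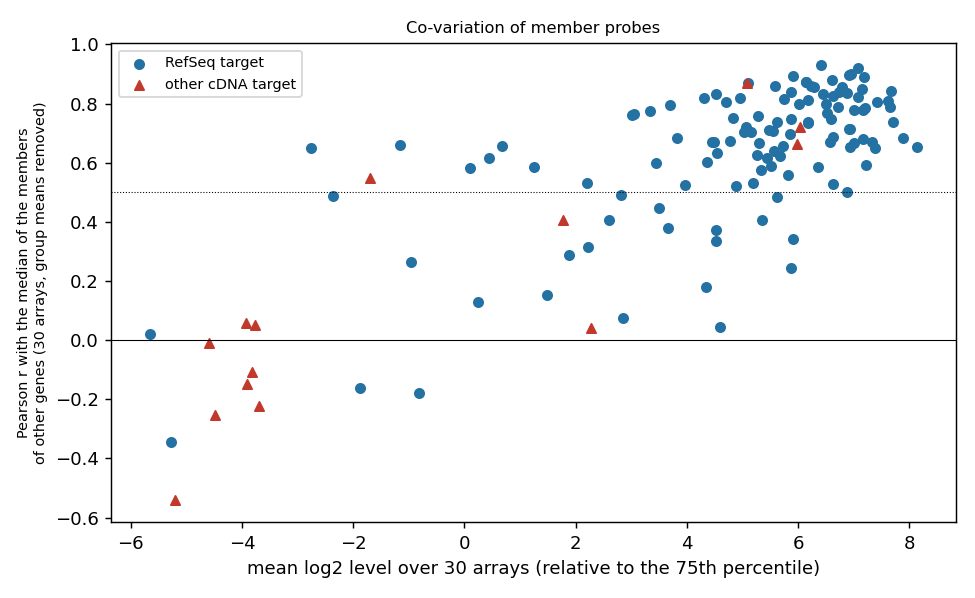
Pearson r of each tested member with the median of the members of other genes (30 arrays, group means removed) against its mean log2 level, for RefSeq targets (circles) and other cDNA targets (triangles). The dotted line marks 0.5; the 10 members that were not above background on every array lie at 0.06 or below.

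On some arrays most members deviated together. On Coach R5, 122 of 134 members lay above the group mean, on Wildtype R1 121, and on Coach R2 12. Over all tested probes the share above the group mean was 44.5%, 47.6% and 57.4% on these arrays. The median deviation of the members on Coach R5 was 0.41. That array was also the dimmest, with 58.6% of spots well above background, but Wildtype R1, with a 75th percentile of 924 and 70.1%, was within the range of its group. The part of signal strength in these deviations was not tested.

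The 5 non-member probes closest to the median of the members were Gm5962, annotated as similar to Rpl12 (r 0.90), a transcript similar to Rps7 (0.90), Gm7634 (0.89), a transcript of Rps15a (0.88) and Gm5135 (0.88). The annotations of 3 of these 5 name a ribosomal protein. Ranks 6 to 10 were Sprr2a1 (r 0.86), probes without annotation (0.86, 0.86 and 0.85) and a pseudogene of Rpl32 (0.84). Gas5, a noncoding host gene of small nucleolar RNAs with a terminal oligopyrimidine start, was at rank 11 with r of 0.84. It was named after its value was seen.

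Other genes of the pathway were counted from lists, at an unadjusted p under 0.05, where 3.43% of all probes were higher and 2.74% lower in Per3 5/5 and 0.988% and 0.748% in Per3 4/4. For terminal oligopyrimidine messages outside the members (20 genes, 35 probes tested), 0 were higher and 0 lower in Per3 5/5, and 0 and 1 in Per3 4/4. Of the mTORC1 and S6 kinase arm (20 genes, 37 probes), 0 were higher and 1 lower in Per3 5/5, the translation repressor Eif4ebp1 at -0.33 (SE 0.16), and 0 in Per3 4/4. For ribosome biogenesis (44 genes, 73 probes), 14 were higher (19.2%) and 2 lower (2.74%) in Per3 5/5 and 0 in Per3 4/4, with none past the adjusted threshold and medians of 0.09 and -0.01. The count of 14 rested on single arrays: it was 1 without Boxhill R3 (1.37%, against 1.19% of all probes), 4 without R6, 6 without R5, and 8, 9 and 6 without Wildtype R1, R2 and R4. Examples are Polr1e, a subunit of RNA polymerase I, at 0.35 (SE 0.13), Gnl3, a nucleolar GTPase, at 0.31 (SE 0.12), and Tcof1, a nucleolar factor, at -0.36 (SE 0.12). For the mitochondrial ribosome (76 genes, 121 probes), 14 were higher (11.6%) and 0 lower in Per3 5/5 and 0 and 1 in Per3 4/4, with medians of 0.11 and -0.01, Mrps9 among the former at 0.43 (SE 0.15). Here the count of 14 was 2 without Boxhill R3 (1.65%, against 1.19% of all probes), 5 without R6, 9 without R5 and 8 without Wildtype R4, and it was 25 and 22 without Boxhill R1 and R4. The median deviations of the 4 lists over 30 arrays had a Pearson r with that of the members of 0.87 for the other terminal oligopyrimidine messages, 0.47 for the mitochondrial ribosome, -0.18 for ribosome biogenesis and -0.68 for the mTORC1 and S6 kinase arm, given as a description. In all 4 lists 0 probes passed limma's adjusted threshold in either comparison.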

How the data were processed

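The deposited scanner files hold spot intensities that the authors extracted with Agilent Feature Extraction 10.7.1.1 (per the file headers) from one-colour Cy3 arrays of RNA from 1 mouse each. The authors' table of log2 values was, per its own match to the scanner files, shifted to the 75th percentile of each array and centred on each probe's median within a run; the authors normalized in GeneSpring. In run 1 only 1 of 14 columns matched the scanner file of its own replicate number, and all 14 matched a file of the same genotype, so replicate numbers of run 1 are those of the scanner files here and the groups are not affected. The series has 30 arrays; the authors left out 1 Per3 5/5 and 1 wild-type array for poor quality, which were not analysed here.

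From the processed signal, outlier spots were left out, log2 values were shifted to each array's 75th percentile, and spots of a probe were averaged. Probes well above background on at least 50% of the arrays of 1 genotype or more (29947 of 41174) were tested with limma 3.58.1 in R 4.3.3 (1 mean per group and run, lmFit and eBayes, Benjamini-Hochberg adjustment over all tested probes), and the script was tested on simulated data. Different probes of a gene were kept apart. The methods' t-test within a run, quantile normalization, other centring and filters, normexp, slide and replicate blocks, array weights and leaving out each array were alternatives. The rank product of the methods was not run. No saturated spots were present. The number of arrays limits the precision.

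Some items withheld for evaluation are not reported here. The members and lists were chosen with earlier results of these data known. The probes named were the 4 highest and 4 lowest changes and 3 smallest p in each comparison, the paralogs with partners, Rps6, Rpsa, Rps27a and the stalk, the probes with the largest SD or disagreement between probes, and those at the ends of each subunit's levels (51 probes of 36 genes). Marker lists of 12 cell types or regions were counted: at an unadjusted p under 0.05, choroid plexus, of 18 probes tested, had 0 higher and 1 lower (5.56%) in Per3 5/5 and 5 higher (27.8%, against 0.988% of all probes) and 0 lower in Per3 4/4. With 1 array left out the 5 ran from 3 (without Wildtype R10 or R15) through 8 (without R14) to 14 (without R9). Striatum had 1 of 6 higher (all probes 3.43%) and cortex 1 of 4 lower (2.74%) in Per3 5/5, thalamus 1 of 9 higher in Per3 4/4, and hypothalamic neurons, pituitary, oligodendrocyte, astrocyte, microglia, endothelium, ependyma and blood (6 to 17 probes each) 0. Counts of lists with an array left out were added after seeing the data. Their part in the members' values was not tested.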

Additional observations from a re-analysis of the deposited data

Results flagged for a closer look

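In each group of 7 or 8 arrays, the gap between the highest or lowest array and its neighbour was divided by the range of the group and set against Dixon's 95% critical value. Of 208 groups (the members' median and 51 probes, each in 4 groups), 43 passed (20.7%). Chance gives about 1 in 20 for probes chosen without regard to their values. Many of the 51 were chosen by their changes, p, SD or disagreement in these data, so that rate does not hold for them. Members move together, so the groups are not independent.

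Wildtype R1 was the highest array of its group, with the gap as a share of the range at 0.716 for the members' median level, 0.876 for Rpl10 A_51_P495895, 0.813 for Rpl10 A_52_P171216, 0.620 for Rpl22 A_52_P391718 and 0.607 for Rpl22l1 A_51_P218814. On the same array it was 0.637 for Rpl39 A_51_P139244, 0.632 for Rplp0 A_52_P586574, 0.698 for Rplp2 A_52_P134382, 0.576 for Rps10 A_51_P169156 and 0.782 for Rps27 A_51_P511199. On the same array it was 0.748 for Rps29 A_52_P158090 and 0.806 for Rps6 A_51_P344734. Coach R5 was the highest array of its group, with the gap as a share of the range at 0.590 for Rpl22l1 A_51_P218814, 0.538 for Rpl36a A_52_P197926, 0.624 for Rpl36a A_52_P481880, 0.664 for Rpl37a A_51_P441263 and 0.574 for Rpl38 A_51_P227332. On the same array it was 0.612 for Rpl39 A_51_P139244, 0.632 for Rpl7 A_52_P346326, 0.777 for Rplp2 A_52_P134382, 0.577 for Rps10 A_51_P169156 and 0.708 for Rps12 A_51_P349435. On the same array it was 0.572 for Rps27a A_51_P128945, 0.566 for Rps4x A_51_P267995 and 0.550 for Rpsa A_52_P372165. Coach R5 was the lowest array of its group, with the gap as a share of the range at 0.581 for Rpl13 A_52_P103513 and 0.538 for Rps24 A_52_P100002. Wildtype R15 was the lowest array of its group, with the gap as a share of the range at 0.558 for Rpl22 A_51_P387878, 0.753 for Rpl36a A_51_P283920, 0.691 for Rpl36a A_52_P197926, 0.566 for Rpl38 A_51_P227332 and 0.591 for Rpl7 A_52_P455580. On the same array it was 0.549 for Rps27l A_51_P246903. Boxhill R3 was the lowest array of its group, with the gap as a share of the range at 0.577 for Rps12 A_51_P349435, 0.774 for Rps27a A_51_P128945 and 0.576 for Rps4x A_51_P267995. Boxhill R6 was the highest array of its group, with the gap as a share of the range at 0.689 for Rpl10 A_51_P495895 and 0.632 for Rpl22l1 A_51_P218814. For Rpl7 A_51_P496480, Wildtype R4 was the lowest array at 2.11, next to 3.11, a share of 0.764. For Rplp0 A_51_P134602, Wildtype R3 was the lowest array at 7.08, next to 7.36, a share of 0.647. For the cDNA probe of Rps6, Wildtype R7 was the lowest array at -5.48, next to -4.38, a share of 0.600. For Rpl22l1 A_52_P65897, Wildtype R8 was the highest array at -3.53, next to -4.77, a share of 0.728. For Rps15a A_52_P491433, Wildtype R10 was the lowest array at -1.22, next to -0.77, a share of 0.544.

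Coach R5 and Wildtype R15 were also the dimmest arrays of the series, with 75th percentile intensities of 347 and 490, while Wildtype R1 was at 924. The part of array brightness in these values was not tested.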

How the results depend on the processing

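Per3 5/5, Per3 4/4 and their difference had 17, 14 and 12 other settings, besides each array left out. In each, 0 member probes passed the adjusted threshold. Among all probes tested, 16 passed in Per3 5/5 with array weights, 2 without Boxhill R5, 3 without Wildtype R7 and 0 otherwise. In Per3 4/4, 0 to 9 of all probes passed, and in the difference 2 without Boxhill R5 and 0 otherwise. The count of 0 members is thus near the share of all probes. The members' median log2 change stayed within 1 SD of the array medians in every one of these settings. That margin is wide. The SDs of the array medians were 0.10 and 0.19 in the groups of run 1 and 0.16 and 0.09 in those of run 2. The median changes were only -0.05 and -0.03, so a change of 0 would also lie within it. In Per3 5/5 the members' median change ran from -0.07 to 0.01 with an array left out and from -0.07 to 0.00 otherwise. It was above 0 without Wildtype R1 (0.01) and with array weights (0.00). In Per3 4/4 it ran from -0.08 to -0.01 and from -0.09 to -0.03. Counts at an unadjusted p under 0.05 moved most with array weights, to 5 higher (3.73%, against 5.24% of all probes) and 3 lower (2.24%, against 5.39%) in Per3 5/5 and to 2 higher (1.49%, against 3.11%) and 12 lower (8.96%, against 2.31%) in Per3 4/4. The cause was not tested. No probe named for its change or its p changed sign, but normexp gave 0.18 for the Rps6 cDNA probe and 0.04 for Rpl39l in Per3 4/4 and -0.15 in Per3 5/5, and array weights gave -0.98 for Rpl39l in Per3 5/5, 0.18 for Rpl7l1 A_52_P343343 and 0.00 for Rpl22l1.

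With the replicate number as a block in run 1, the members' median was -0.05 and 0 members were called, with 2 higher (1.49%, against 6.09% of all probes) and 1 lower (0.746%, against 5.47%) at an unadjusted p under 0.05. With the numbers of the authors' table, an alternative chosen after seeing the data, the block gave a median of -0.04, 5 higher (3.73%, against 6.28%) and 2 lower (1.49%, against 5.52%). With the numbers of the scanner files, the residuals of same-numbered arrays correlated between -0.28 and 0.40 over 7 pairs. The numbers of the authors' table were not checked in this way. Whether the samples were paired cannot be told from these values. For Per3 4/4 no paired analysis was possible because the groups share 1 number. Dim probes, the small groups and the 2 runs limit the precision.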
